A study of Mus musculus with 3 samples.

Results

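The integrins, the laminins and a group of further adhesion ligands were followed through 3 RNA-seq libraries of MC3T3-E1 cells, a wild-type line of mouse preosteoblasts from calvaria. Members were the genes whose symbol names an integrin subunit or a laminin chain, together with Nid1, Nid2, Hspg2, Agrn, Dag1, Fn1 and Vtn. The deposited table held 42 such genes among 15287, namely 16 integrin alpha subunits, 8 integrin beta subunits, Itgbl1, 10 laminin chains and the 7 genes named. Itgbl1 fits by its symbol only, since the protein is related to beta subunits but is not one. Untreated cells gave the CTL library. Titanium particles were added for 24 h at 10 μg/cm² (Ti), or at that dose along with 5 μM selenomethionine (Ti+Se-Met). With 1 library for every condition, differences could not be set against replicate spread, and p-values were not calculated. The study asked whether selenomethionine counters the loss of bone-forming activity that titanium particles bring.

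Integrins are receptors made of 1 alpha and 1 beta subunit that tie the extracellular matrix to the actin cytoskeleton. The alpha subunit largely sets the ligand: pairs with alpha 1, alpha 10 or alpha 11 bind collagen, pairs with alpha 3 or alpha 6 bind laminin, and alpha 5, alpha 8 and alpha V pairs recognise the RGD sequence of fibronectin, vitronectin or nephronectin. Laminins are trimers of an alpha, a beta and a gamma chain that form the scaffold of basement membranes, where nidogens link them to collagen IV and where perlecan and agrin are the large heparan sulfate proteoglycans. Dystroglycan, the product of Dag1, is the main laminin receptor outside the integrin family. In osteoblasts, fibronectin and beta 1 integrins take part in attachment, matrix assembly and differentiation.

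Levels are in FPKM, fragment numbers scaled to transcript length and to sequencing depth, so they can be compared between genes of a library. Differences are between values of log2(FPKM + 1), called log2 ratios below, and a fold is the plain quotient of the FPKM values. A difference counted as 2-fold, or as past 1.5-fold, when it reached that size after 1 was added. Genes with at least 1 FPKM in at least 1 library were kept, which left 26 of the 42 members (61.9%) and 11137 of all genes (72.9%). Adding 1 pulls the log2 ratios of weakly expressed genes towards 0. Read counts were not used here, and single-fragment steps in short genes gave an estimated depth of 14250000 fragments (CTL), 14700000 (Ti) and 10100000 (Ti+Se-Met). Ranges in parentheses are 95% intervals (exact, conditional binomial) from those fragments, which include counting error alone and so describe these libraries rather than the conditions. The FPKM values summed to 448285 in CTL and 526017 in Ti, and no scaling between libraries was stated. Rescaling to equal sums (TPM) moved the all-gene median of the log2 ratio (Ti against CTL) from 0.08 to -0.14.

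The label of the cells was checked against marker genes. Col1a1 (1333 FPKM), Col1a2 (2688 FPKM) and Runx2 (26.8 FPKM) were well expressed in CTL, whereas Alpl was at 1.51 FPKM, Sp7 at 0.63 FPKM and Bglap at 0.46 FPKM, and Ibsp was listed at 0. Spp1 (1261 FPKM) and Bglap2 (3.76 FPKM) completed the list, so that 6 of its 9 genes reached 1 FPKM in CTL. Of the markers of other cell types, 3 endothelial and 3 adipocyte genes stayed below 1 FPKM in every library. The epithelial, osteoclast, chondrocyte and muscle lists each had 1 of 3 listed genes above it, namely Krt14 (5.59 FPKM in CTL), Ctsk (17.78 FPKM), Sox9 (24.94 FPKM) and Des (1.05 FPKM). In bulk RNA, fewer cells of a type and less RNA per cell cannot be told apart.

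In the untreated cells the adhesion genes formed a clear order. Fn1, which encodes fibronectin, was far above all others at 1400 FPKM, a level that 99.8% of all genes kept were at or below. Next came the beta subunits Itgb1 (197 FPKM) and Itgb5 (129 FPKM), then Dag1 (101 FPKM), Nid2 (97.4 FPKM), Lamb1 (70.6 FPKM) and Hspg2 (69.2 FPKM), which encodes perlecan. The most abundant alpha subunit was Itgav (50.5 FPKM), followed by Itga11 (40.6 FPKM), Itga5 (24.3 FPKM) and Itga3 (20.8 FPKM). Each class of laminin chain was carried by few genes. Lama4 held 99.3% of the summed FPKM of the laminin alpha chains and Lamc1 held 99.5% of the gamma chains, while the beta chains were divided between Lamb1 (59.5%) and Lamb2 (40.3%). The chains expressed were therefore those of laminin-411 and laminin-421. The 16 members that did not pass the filter were below 1 FPKM in every library, and among them were Itga2, Itga4, Itga7, Itga9, Itgae, Itgal, Itgax, Itgb6, Itgb8, Itgbl1, Lama2, Lama3, Lama5, Lamb3 and Lamc3. Itgax and Itgb6 were listed at 0 in CTL and in Ti+Se-Met, Itga2 was listed at 0 in Ti, and Lamc3 was listed at 0 in Ti and in Ti+Se-Met.

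**Figure D1:**
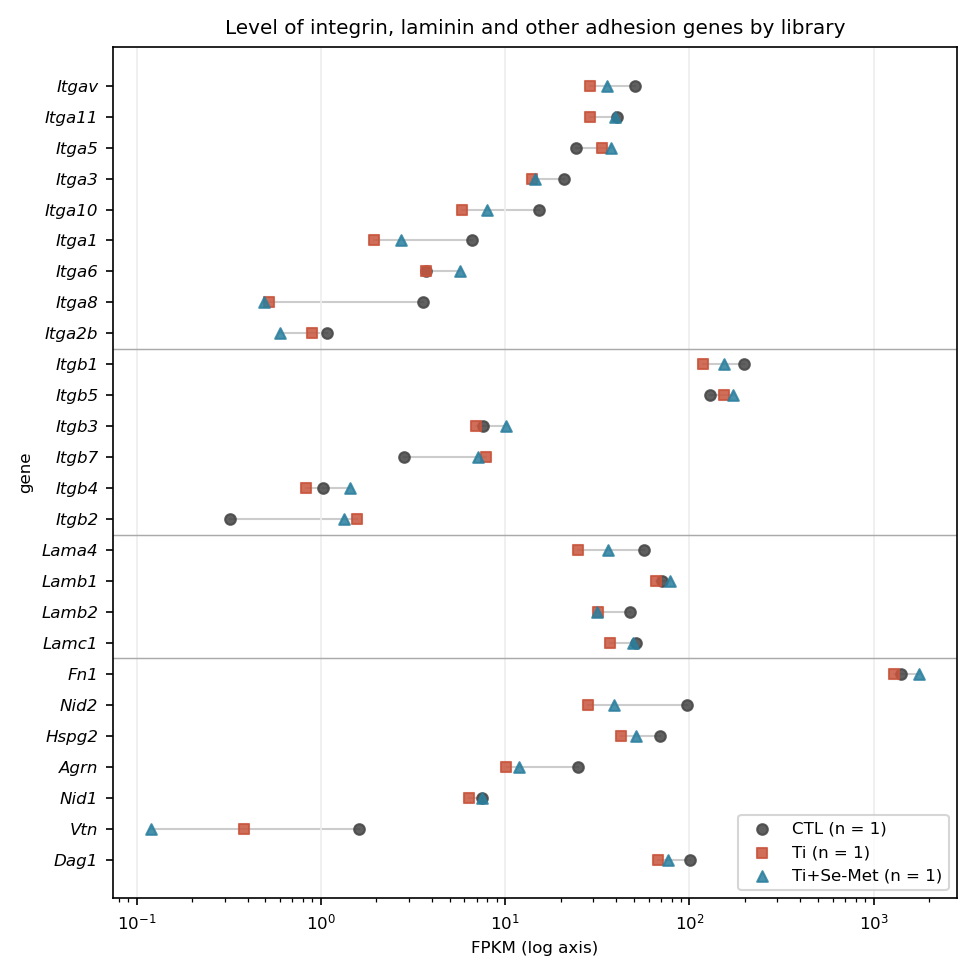
FPKM of the 26 adhesion genes with at least 1 FPKM in a library, on a log axis, with 1 symbol per library (CTL, Ti and Ti+Se-Met, each n = 1) and gray lines that span the 3 values of a gene. Fn1 lies above 1000 FPKM in every library, the CTL symbol is the highest for 16 of the 26 genes, and Itga5, Itgb5, Itgb7 and Itgb2 lie lowest in CTL.

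In the Ti library most of these genes were lower than in CTL, and those at least 2-fold lower were Nid2, Itga8, Itga1, Itga10, Agrn and Lama4. Of the 26 genes kept, 6 were at least 2-fold lower (23.1%, against 3.64% of all genes kept) and 1 was at least 2-fold higher (3.85%, against 3.63%). Without regard to size, 21 were lower (80.8%, against 44.5% of all genes), 4 were higher and Itga6 was equal. At 1.5-fold, 12 differed in either direction, against 26.8% of all genes. The median log2 ratio was -0.52 over the 26 genes and 0.08 over all genes kept. With TPM, upper-quartile and median-of-ratios scaling, 22 of the 26 were lower, against 59.7%, 51.2% and 49.9% of all genes. These counts describe 1 pair of libraries, and a gene that passed the filter only through the library where it was high had to differ. The adhesion genes also had long transcripts, with a median of 5646 bases against 3069 for all genes kept. All genes kept with transcripts of at least that length had a median log2 ratio of -0.20 and shorter ones 0.14, and the part of transcript length in the result was not tested.

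Among the ligands, Nid2, which encodes nidogen-2, had the lowest log2 ratio in Ti against CTL after 1 was added, although the plain fold of Vtn was lower. It was at 97.39 (CTL), 28.12 (Ti) and 38.98 FPKM (Ti+Se-Met), so that the CTL library stood far above both others. Ti against CTL gave a log2 ratio of -1.76 and a fold of 0.289 (0.274 to 0.304). Nid1, which encodes the other nidogen, was at 7.45, 6.35 and 7.49 FPKM and thus differed little. The quotient of Nid2 over Nid1 was 13.1 (CTL, 12.0 to 14.2), 4.43 (Ti, 4.03 to 4.87) and 5.20 (Ti+Se-Met, 4.70 to 5.79), a comparison within each library that does not depend on scaling. Agrn, which encodes agrin, was at 24.92 (CTL), 10.15 (Ti) and 11.96 FPKM (Ti+Se-Met), with a fold of 0.407 (0.378 to 0.439) in Ti against CTL. Hspg2 was at 69.22, 42.74 and 51.18 FPKM, with a fold of 0.617 (0.601 to 0.634). Both proteoglycans were thus lower in the Ti library, Agrn by more than 2-fold and Hspg2 by less.

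Fibronectin differed from these genes in both size and order. Fn1 was at 1400.47 (CTL), 1296.64 (Ti) and 1755.64 FPKM (Ti+Se-Met), so the Ti library was slightly below CTL and the Ti+Se-Met library was the highest. The fold was 0.926 (0.919 to 0.933) in Ti against CTL and 1.25 (1.24 to 1.26) in Ti+Se-Met against CTL. The size of both differences depended on scaling, which the intervals leave out. The log2 ratios were -0.11 and 0.33 as deposited, and -0.34 and 0.13 under TPM. Vtn, which encodes vitronectin, was low throughout, at 1.6, 0.38 and 0.12 FPKM on about 36, 9 and 2 fragments. Its fold was 0.238 (0.103 to 0.513) in Ti against CTL, but the difference stayed under 2-fold once 1 was added, and it passed the filter through CTL alone.

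The expressed laminin chains differed from CTL to unequal degrees. Lama4 was at 57.07 (CTL), 24.82 (Ti) and 36.09 FPKM (Ti+Se-Met), and its log2 ratio (Ti against CTL) was -1.17 with a fold of 0.435 (0.413 to 0.458). Lamc1, the gamma chain that pairs with it, was at 51.2, 37.07 and 49.15 FPKM. Lama4 was above Lamc1 in CTL (quotient 1.11, 1.07 to 1.16) and below it in Ti (0.670, 0.635 to 0.706) and in Ti+Se-Met (0.734, 0.696 to 0.775). Between the beta chains, Lamb1 was at 70.62, 65.92 and 78.51 FPKM and Lamb2 at 47.87, 31.84 and 31.71 FPKM. The quotient of Lamb1 over Lamb2 therefore differed in each library, at 1.48 (CTL, 1.42 to 1.54), 2.07 (Ti, 1.98 to 2.17) and 2.48 (Ti+Se-Met, 2.34 to 2.62).

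Dag1, the gene of dystroglycan, was at 100.92 (CTL), 67.94 (Ti) and 76.92 FPKM (Ti+Se-Met), with a fold of 0.673 (0.647 to 0.701) in Ti against CTL.

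The promoters of 4 integrin genes that results below turn on are shown, Itga8 and Itga1 for the lower subunits, Itgb7 for the subunit that was at least 2-fold higher, and Itgb5 for the subunit that was the most abundant beta subunit in Ti. Each is the RefSeq window of 300 bases around the annotated start on GRCm38.p6, most of it upstream, written along the strand of the gene. The deposited values carry no coordinates. Capitals mark matches on either strand to the GC box GGGCGG, the AP-1 site TGANTCA or the TATA box TATAAA, and all capitals shown belong to GC boxes.
Itga8, chr2:12301895-12302194, minus strand: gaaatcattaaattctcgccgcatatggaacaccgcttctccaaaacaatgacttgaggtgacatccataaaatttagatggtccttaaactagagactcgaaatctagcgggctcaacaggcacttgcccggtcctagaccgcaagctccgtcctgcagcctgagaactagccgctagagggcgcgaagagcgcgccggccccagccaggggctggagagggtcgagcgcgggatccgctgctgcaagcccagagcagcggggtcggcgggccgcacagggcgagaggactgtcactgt
Itga1, chr13:115101915-115102214, minus strand: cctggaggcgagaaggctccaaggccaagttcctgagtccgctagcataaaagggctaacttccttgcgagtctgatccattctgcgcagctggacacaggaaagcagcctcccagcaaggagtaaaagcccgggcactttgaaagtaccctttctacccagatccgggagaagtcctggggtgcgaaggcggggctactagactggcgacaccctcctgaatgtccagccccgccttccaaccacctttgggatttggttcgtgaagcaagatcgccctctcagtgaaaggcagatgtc
Itgb7, chr15:102231886-102232185, minus strand: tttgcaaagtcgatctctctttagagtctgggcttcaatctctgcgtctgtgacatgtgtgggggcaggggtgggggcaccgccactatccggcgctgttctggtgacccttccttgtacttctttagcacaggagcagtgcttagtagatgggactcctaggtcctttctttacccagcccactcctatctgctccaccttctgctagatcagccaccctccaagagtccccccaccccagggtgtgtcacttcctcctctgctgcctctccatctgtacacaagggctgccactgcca
Itgb5, chr16:33829415-33829714, plus strand: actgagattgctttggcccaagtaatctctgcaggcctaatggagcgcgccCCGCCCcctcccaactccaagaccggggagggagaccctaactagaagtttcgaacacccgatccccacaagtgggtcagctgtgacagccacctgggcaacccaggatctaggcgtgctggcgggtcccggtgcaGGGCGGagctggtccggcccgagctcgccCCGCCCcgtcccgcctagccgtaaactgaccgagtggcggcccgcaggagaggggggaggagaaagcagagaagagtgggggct
Of the 42 members, 28 were found in the table of windows, with 33 windows, and Nid2, Lama4 and Fn1 were not among them. The window of Itgb5 held 3 GC boxes, and those of Itga8, Itga1 and Itgb7 held 0 of the 3 motifs. Of the 33 windows, 54.5% held a GC box, 9.09% an AP-1 site and 3.03% a TATA box, against 35.7%, 7.81% and 13.6% of the 32851 windows of all genes. A match is a description of letters and not of a bound site.

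Of the 9 alpha subunits kept, 3 were at least 2-fold lower in Ti than in CTL, where 3.64% of all genes kept were, and these were Itga8, Itga1 and Itga10. Itga8, the receptor subunit for nephronectin, was at 3.58 (CTL), 0.52 (Ti) and 0.49 FPKM (Ti+Se-Met), and its log2 ratio was -1.59 with a fold of 0.145 (0.102 to 0.199). It rested on about 289 fragments in CTL and 43 in Ti, and passed the filter through CTL alone. Itga1 was at 6.59, 1.95 and 2.73 FPKM, a fold of 0.296 (0.260 to 0.336), and Itga10 at 15.19, 5.84 and 8.02 FPKM, a fold of 0.384 (0.342 to 0.431). Both encode collagen receptors. The third collagen-binding subunit expressed here, Itga11, was at 40.58, 28.78 and 39.35 FPKM, a fold of 0.709 (0.670 to 0.751). The quotient of Itga11 over Itga1 was 6.16 (CTL, 5.73 to 6.62), 14.8 (Ti, 13.1 to 16.7) and 14.4 (Ti+Se-Met, 12.8 to 16.4), so the collagen receptor transcripts of both particle-treated libraries were more strongly weighted to Itga11.

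The subunits for RGD ligands and laminin differed among themselves. Itgav was at 50.46 (CTL), 28.82 (Ti) and 35.87 FPKM (Ti+Se-Met), a fold of 0.571 (0.546 to 0.598) in Ti against CTL, whereas Itga5, the alpha subunit of the classical fibronectin receptor, was at 24.32, 33.66 and 37.47 FPKM, a fold of 1.38 (1.29 to 1.48). The quotient of Itga5 over Itgav was 0.482 (0.455 to 0.511) in CTL and 1.17 (1.10 to 1.24) in Ti. It was 1.04 (0.981 to 1.11) in Ti+Se-Met, where the interval included equal levels. Itga5 was the only alpha subunit kept that was higher in Ti than in CTL, and it was higher under TPM, upper-quartile and median-of-ratios scaling as well. Of the laminin-binding subunits, Itga3 was at 20.81, 13.91 and 14.59 FPKM, and Itga6 at 3.73, 3.73 and 5.69 FPKM. Itga2b, a platelet subunit, was at 1.08, 0.9 and 0.6 FPKM, it too passed the filter through CTL alone, and its interval in Ti against CTL (0.532 to 1.25) included equal levels. Itga2b is itself 1 of the 5 platelet and megakaryocyte markers, and of the others Pf4 was at 4.3, 1.18 and 1.86 FPKM and Gp1bb at 2.32, 1.05 and 1.13 FPKM, while Gp1ba and Gp9 stayed below 1 FPKM. The part of such cells in the value of Itga2b was not tested.

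The order of the beta subunits was not the same in every library. Itgb1, the common partner of most of the alpha subunits above, was at 197.35 (CTL), 117.93 (Ti) and 154.59 FPKM (Ti+Se-Met), a fold of 0.598 (0.579 to 0.617) in Ti against CTL. Itgb5, a partner of alpha V in binding vitronectin, was at 128.63, 153.26 and 173.48 FPKM, a fold of 1.19 (1.15 to 1.24). That difference depended on scaling, with a log2 ratio of 0.25 as deposited and 0.02 under TPM. As a share of the summed FPKM of the beta subunits, Itgb1 held 58.4% (CTL), 40.9% (Ti) and 44.4% (Ti+Se-Met), and Itgb5 held 38.1%, 53.1% and 49.8%. Itgb1 was thus the most abundant beta subunit in CTL and Itgb5 in both other libraries. The quotient of Itgb5 over Itgb1 was 0.652 (CTL, 0.630 to 0.674), 1.30 (Ti, 1.26 to 1.35) and 1.12 (Ti+Se-Met, 1.08 to 1.17). Itgb3, the other well-known partner of alpha V, was at 7.6, 6.92 and 10.09 FPKM, and Itgb4 at 1.03, 0.83 and 1.43 FPKM. The intervals of both in Ti against CTL, 0.811 to 1.02 and 0.568 to 1.12, included equal levels.

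**Figure D2:**
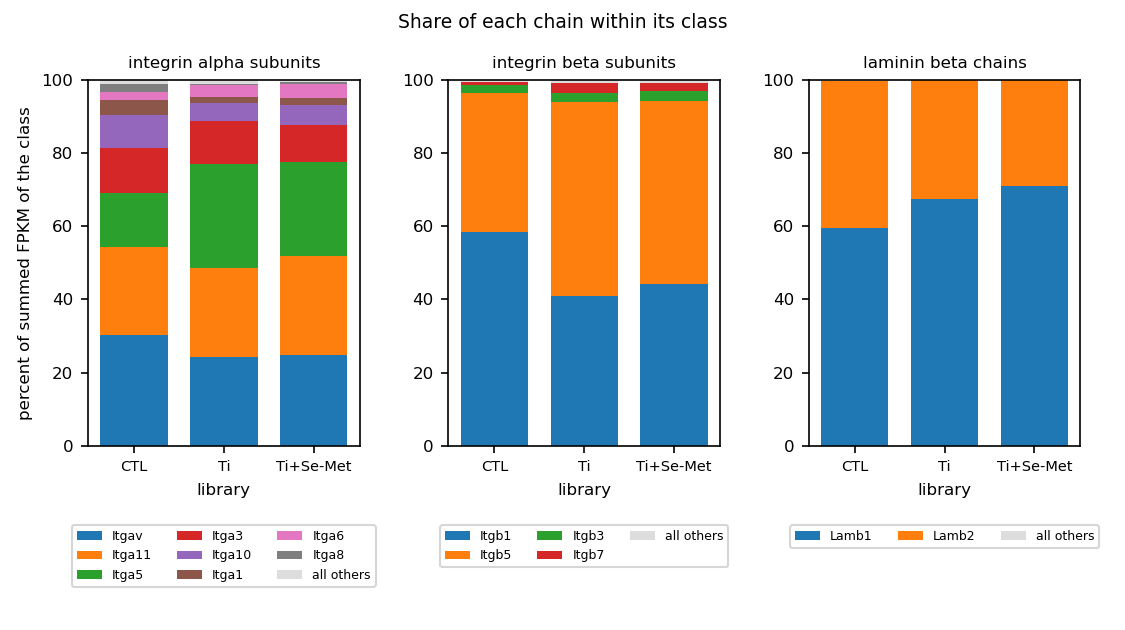
Percent of the summed FPKM of all integrin alpha subunits (left), integrin beta subunits (middle) and laminin beta chains (right) held by each gene in the CTL, Ti and Ti+Se-Met libraries (each n = 1). Genes that reach 2% in at least 1 library are drawn apart. The share of Itgb5 is 38.1% in CTL and 53.1% in Ti, and that of Itga5 is 14.5% in CTL and 28.4% in Ti.

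The beta subunits of leukocyte integrins had the highest folds in Ti against CTL. Itgb7 was at 2.81 (CTL), 7.86 (Ti) and 7.15 FPKM (Ti+Se-Met), and it was the only member that was at least 2-fold higher, with a fold of 2.80 (2.24 to 3.56) in Ti against CTL. Itgb2 was at 0.32, 1.56 and 1.34 FPKM on about 13, 65 and 38 fragments, a fold of 4.88 (2.65 to 9.59) that stayed under 2-fold once 1 was added (log2 ratio 0.96) and passed it with TPM (1.21). Those alpha subunits listed that pair with beta 7 or beta 2 were near 0, and Itgam and Itgad, further partners of beta 2, were not listed. Itga4 and Itgae, the partners of beta 7, were at most 0.03 and 0.13 FPKM in any library, and Itgal and Itgax, partners of beta 2, were at most 0.31 and 0.03 FPKM. Of the 10 leukocyte markers, 5 were listed and 2 of them (Lyz2 and Cd14) reached 1 FPKM. The summed level of the list was 32.5 (CTL), 31.8 (Ti) and 27.8 FPKM (Ti+Se-Met). Cd14 was at 5.7, 16.56 and 14.81 FPKM and Lyz2 at 26.72, 14.76 and 12.42 FPKM, while Cd68 (0.06, 0.37 and 0.42 FPKM), Csf1r (0.02, 0.07 and 0.1 FPKM) and Laptm5 (0.03, 0 and 0.04 FPKM) stayed near 0. The part of leukocytes in the values of Itgb7 and Itgb2 was not tested.

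**Figure D3:**
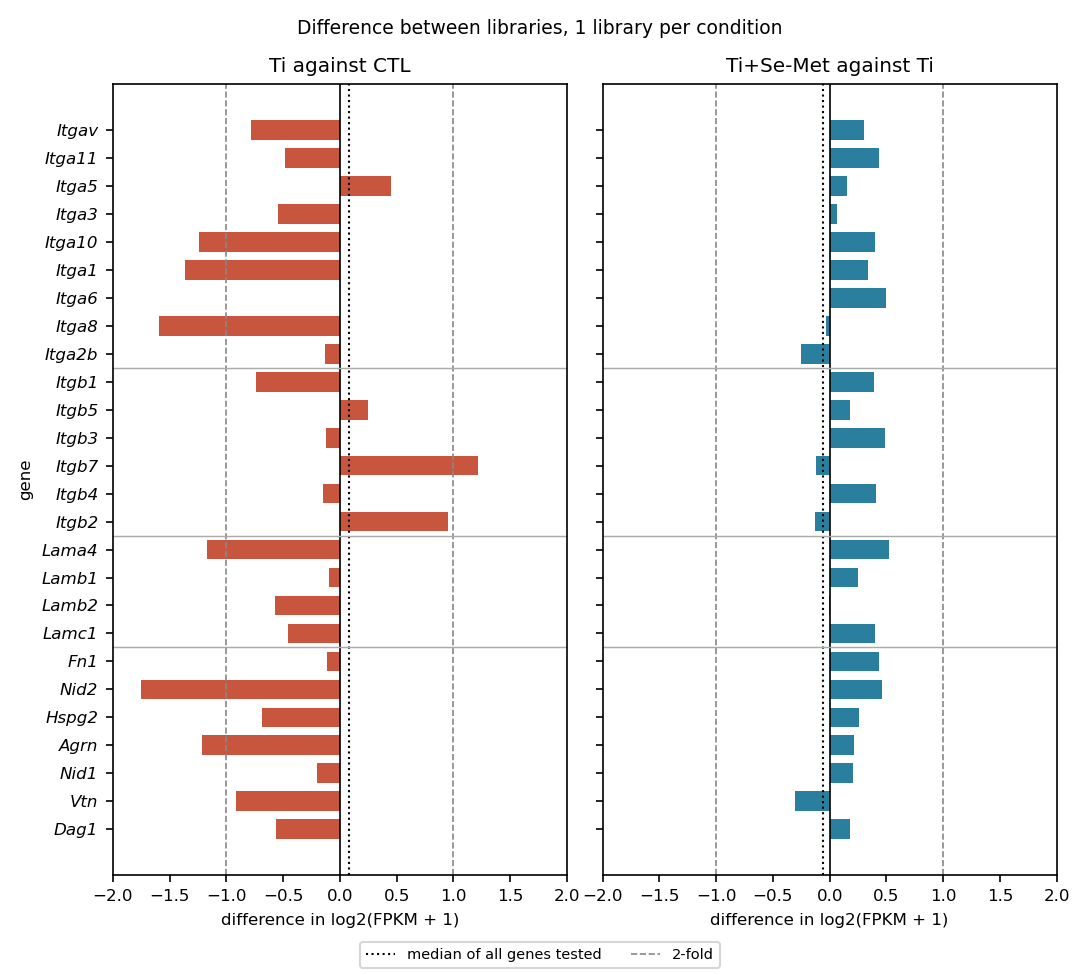
Difference in log2(FPKM + 1) for the 26 adhesion genes in Ti against CTL (left) and in Ti+Se-Met against Ti (right), with dashed lines at 2-fold and a dotted line at the median of all genes kept. In the left panel 6 bars reach below -1 and 1 reaches above 1, and in the right panel the bars lie between -0.30 and 0.52.

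In Ti+Se-Met against CTL the adhesion genes again had a median below that of all genes. The counts share the CTL library with those above and are given for themselves. Of the 26 genes, 5 were at least 2-fold lower than in CTL (19.2%, against 3.32% of all genes kept), namely Itga8, Nid2, Vtn, Itga1 and Agrn, and Itgb7 was the 1 gene at least 2-fold higher (3.85%, against 2.64%). Itga8 and Vtn passed the filter through CTL alone, the library where they were high. Agrn lay exactly at 2-fold after 1 was added. At 1.5-fold, 10 differed, against 22.2% of all genes. The median log2 ratio was -0.36, against 0.01 over all genes. All genes kept with transcripts of at least 5646 bases had a median of -0.21 and shorter ones 0.07. The part of transcript length was not tested here either. The folds against CTL were 0.137 (0.089 to 0.202) for Itga8, 0.400 (0.380 to 0.422) for Nid2, 0.414 (0.362 to 0.471) for Itga1 and 0.480 (0.443 to 0.520) for Agrn. That of Vtn was 0.0750 (0.00914 to 0.305), with about 2 fragments in Ti+Se-Met. Among the genes above CTL were Itgb7 with a fold of 2.54 (1.99 to 3.29), Itga5 with 1.54 (1.43 to 1.66), Itga6 with 1.53 (1.26 to 1.84), Itgb5 with 1.35 (1.30 to 1.40) and Itgb3 with 1.33 (1.18 to 1.49). The plain fold of Itgb2 was larger than that of Itgb7, at 4.19 (2.15 to 8.44), on about 13 and 38 fragments. It stayed under 2-fold once 1 was added. The intervals of Lamc1, Itga11 and Nid1, at 0.920 to 1.00, 0.914 to 1.03 and 0.888 to 1.13, included equal levels.

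Ti+Se-Met differed little from Ti, and mostly upwards. Of the 26 genes, 0 were at least 2-fold higher (against 0.162% of all genes) or lower (against 0.0629%), and 0 passed 1.5-fold once 1 was added (against 2.14%). The plain folds of Itga6 and Itgb4 were above 1.5, the latter at 1.72 (1.22 to 2.42). That of Vtn was 0.316 (0.0340 to 1.56), on about 9 and 2 fragments, and that of Itga2b 0.667 (0.377 to 1.18). Still, 20 of the 26 were higher in Ti+Se-Met than in Ti (76.9%, against 38.5% of all genes), with a median log2 ratio of 0.25 against -0.06. The Ti library is shared with Ti against CTL and enters the comparisons with opposite sign, so opposite directions are partly built in. With TPM, upper-quartile and median-of-ratios scaling, 21 of 26 were higher, against 43.9%, 44.9% and 50.4% of all genes. All genes kept with transcripts of at least 5646 bases had a median log2 ratio of 0.001 and shorter ones -0.075. The largest log2 ratios were those of Lama4 (0.52, fold 1.45, 1.37 to 1.54), Itga6 (0.50, fold 1.53, 1.26 to 1.84), Itgb3 (0.49, fold 1.46, 1.30 to 1.64), Nid2 (0.46, fold 1.39, 1.30 to 1.48), Itga11 (0.44, fold 1.37, 1.28 to 1.46) and Fn1 (0.44, fold 1.35, 1.34 to 1.36). Itgb1 had a log2 ratio of 0.39 and a fold of 1.31 (1.26 to 1.36). Itga8 was not among them, with 0.52 and 0.49 FPKM and an interval of 0.567 to 1.56, nor was Lamb2, at 31.84 and 31.71 FPKM with an interval of 0.937 to 1.06. Lower in Ti+Se-Met were Vtn, Itga2b, Itgb2, Itgb7, Itga8 and Lamb2, and the intervals of all 6 included equal levels. The direction of Lamb2 depended on scaling, with a log2 ratio of -0.01 as deposited and 0.03, 0.03 and 0.06 under TPM, upper-quartile and median-of-ratios scaling.

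The adhesion genes were set beside 94 further genes of the pathway in 7 lists. In Ti against CTL, 8 of the 94 were at least 2-fold lower (8.51%, against 3.64% of all genes kept) and 5 at least 2-fold higher (5.32%, against 3.63%), and their median log2 ratio was -0.16. Against CTL, the Ti+Se-Met library had 2 lower (2.13%, against 3.32%) and 5 higher (5.32%, against 2.64%), and in Ti+Se-Met against Ti, 1 was higher (1.06%, against 0.162%) and 0 were lower (against 0.0629%).

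Of 41 focal adhesion adaptors and kinases, which link integrin tails to actin, 2 were at least 2-fold lower and 2 higher in Ti than in CTL, with a median of -0.13, and 3.64% and 3.63% of all genes kept did so. Tes, a LIM protein of focal adhesions, was at 19.63 (CTL), 51.98 (Ti) and 69.77 FPKM (Ti+Se-Met), and Parvb, which encodes beta-parvin, at 5.09, 13.8 and 10.97 FPKM. The lower genes were Arhgef6, an exchange factor for Rac, at 17.23, 7.35 and 8.49 FPKM, and Kank1, a talin-binding protein, at 23.94, 10.76 and 13.19 FPKM. The genes of the list with the highest levels in CTL, Flna (202.55, 155.4 and 176.9 FPKM) and Actn1 (106.6, 95.46 and 129.6 FPKM), were under 2-fold. In the other libraries Actn4 (103.45, 125.02 and 172.58 FPKM) and Zyx (92.84, 119.37 and 140.81 FPKM), singled out after their values were seen, lay above Actn1.

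Of 10 genes of the dystrophin-associated complex, which anchors dystroglycan, the median in Ti against CTL was -0.65, with Sgcd (delta-sarcoglycan) at least 2-fold lower at 23.94, 6.95 and 9.6 FPKM. Sntb2 was at 45.8, 24.77 and 25.27 FPKM and Sgcb at 44.98, 27.39 and 33.36 FPKM. Of 8 other basement membrane genes, 7 were lower in Ti (against 44.5% of all genes kept), with a median of -0.56. Over all genes kept the median was 0.08, and 3.64% were at least 2-fold lower. The median was -0.20 for those with transcripts of at least 5646 bases. Col4a6, a collagen IV chain, was at 20.73, 9.46 and 14.16 FPKM and was the 1 gene past 2-fold. Col4a1 was at 88.32, 56.61 and 72.18 FPKM and Col4a2 at 59.21, 42.44 and 50.25 FPKM. The 8 enzymes that add the laminin-binding glycan to dystroglycan had a median of 0.10 and 0 genes past 2-fold, with Pomgnt1 at 22.89, 22.56 and 22.28 FPKM. Among all genes kept, 3.63% were at least 2-fold higher and 3.64% lower in Ti against CTL, so 0 of 8 does not set these enzymes apart.

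Other integrin ligands went both ways. Of 11 kept, 4 were at least 2-fold lower and 2 higher in Ti than in CTL, with a median of -0.55. Of all genes kept, 3.64% were at least 2-fold lower and 3.63% higher, with a median of 0.08. Npnt, which encodes nephronectin, the ligand of alpha 8, was at 18.51 (CTL), 2.23 (Ti) and 2.98 FPKM (Ti+Se-Met). Ligand and receptor subunit were thus both lowest in the particle-treated libraries. Tnc, which encodes tenascin-C, was at 10.21, 2.05 and 5.52 FPKM and was the 1 gene of all lists at least 2-fold higher in Ti+Se-Met than in Ti, with a fold of 2.69. Thbs1 (79.98, 34.11 and 55.79 FPKM) and Fbn1 (15.24, 6.25 and 8.02 FPKM) were the other lower ligands. Higher were Spp1 (osteopontin) at 1261.19, 3705.78 and 4659.49 FPKM and Mfge8, a ligand of alpha V integrins, at 37.05, 79.2 and 87.72 FPKM. Tgfbi passed 2-fold in Ti+Se-Met against CTL alone, at 10.24, 15.24 and 24.35 FPKM, and Thbs2 was at 179.55, 239.6 and 237.78 FPKM.

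Of 8 receptors for matrix outside the integrin family, 0 passed 2-fold in any comparison. Among all genes kept, 3.63% were at least 2-fold higher and 3.64% lower in Ti against CTL. In Ti+Se-Met the shares were 2.64% and 3.32% against CTL, and 0.162% and 0.0629% against Ti. At such shares, 0 of 8 does not set these receptors apart. Rpsa, a ribosomal protein also known as the laminin receptor, was at 714.35, 1171.12 and 1153.3 FPKM, and Sdc2 (syndecan-2) at 139.18, 81.53 and 96.11 FPKM. Of 8 membrane partners of integrins, Plaur, the urokinase receptor, was at least 2-fold higher in Ti than in CTL, as were 3.63% of all genes kept. It was at 5.95, 19.06 and 22.25 FPKM. Cd81 (289.9, 240.69 and 236.14 FPKM) and Cav1 (267.81, 226.9 and 249.4 FPKM) were under 2-fold.

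**Figure D4:**
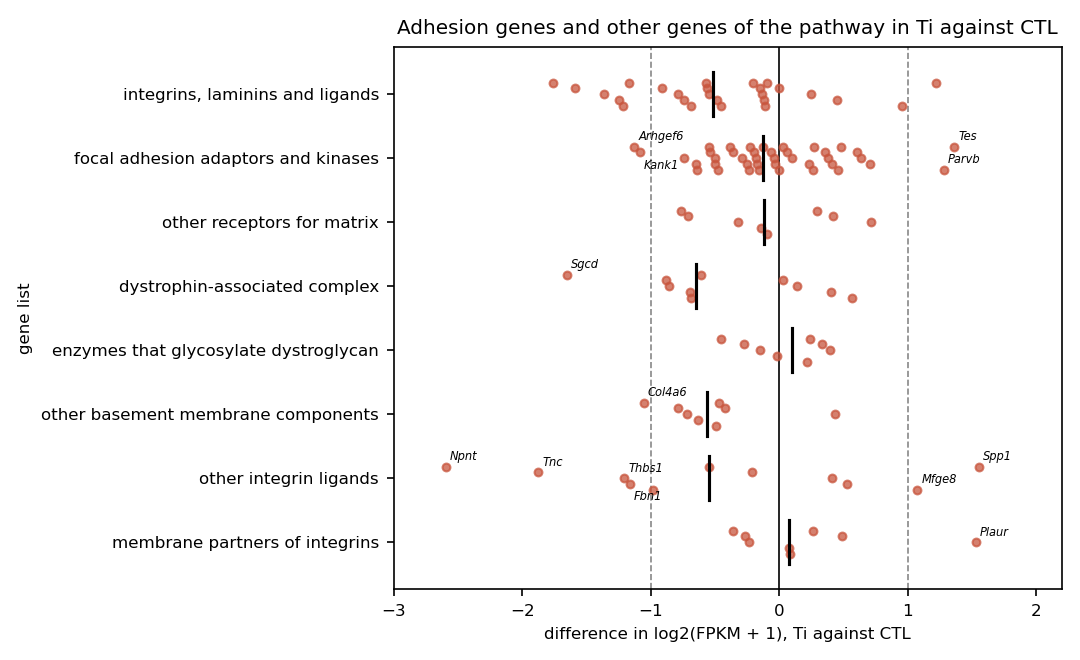
Difference in log2(FPKM + 1) in Ti against CTL for each gene kept (points) in the integrins, laminins and ligands and in 7 further lists of the pathway, with black bars at the list medians and dashed lines at 2-fold. The medians lie at -0.52 for the top row, -0.65 for the dystrophin-associated complex and -0.13 for the focal adhesion adaptors, and genes past 2-fold in the 7 lists are named.

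In the annotation deposited with the values, 35 of the 42 members (83.3%) carried the KEGG term ECM-receptor interaction out of 76 genes with that term in the table. The basement membrane term covered 20 members, and the integrin complex term covered 24 members out of 25 genes.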

How the data were processed

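RNA-seq was performed on 3 libraries of MC3T3-E1 cells. After discarding adapter-containing and poor reads, the authors ran HISAT2 against the mouse genome and deposited FPKM values per gene. The methods name HTSeq for counting, whereas the submitters' processing notes name StringTie and the build mm9, and how FPKM was computed is not given in the sources used here. Values were not scaled further by the main analysis. Column names identified the libraries (0 columns unmatched), and 0 genes were listed at 0 in all of them.

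Log2(FPKM + 1) was compared for genes reaching 1 FPKM in at least 1 library (scipy 1.17.1, pandas 2.3.3, numpy 2.4.6, Python 3.11.15, figures with matplotlib 3.10.9). Count models were not used on FPKM. Depth was estimated from 453 genes with 1 transcript of 350 to 1000 bases, less 150 bases each, with GENCODE M21 lengths matched by RefSeq accession. Of the 117, 93 and 88 low values used in CTL, Ti and Ti+Se-Met, 63.2%, 51.6% and 51.1% lay within 0.1 fragment of a step, against 20.0% by chance. Settings that fitted nearly as well gave 14000000 to 14550000, 14500000 to 14950000 and 9850000 to 10700000 fragments. The fragments of a gene were taken from its shortest matched transcript. The steps were tested on simulated data.

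Named were all members that passed the filter, and of the other lists the genes past 2-fold and the 2 highest in CTL. Some genes that this rule names are not reported here. The members, lists and rules were chosen with earlier results of these data known, and the quotients between pairs of genes and the promoters shown were chosen after their values were seen. Other pseudocounts, filters, fold thresholds and scalings were tried.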

Additional observations from a re-analysis of the deposited data

How the results depend on the processing

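No paired analysis was possible because every group was a single library, which also meant that none could be left out. The number of adhesion genes past 2-fold in Ti against CTL was 7 of 26, against 2 when 5 was added to each value, 12 past 1.5-fold and 0 past 4-fold. Over all 11137 genes kept, the numbers were 809, 333, 2989 and 57. In Ti+Se-Met against CTL 6 adhesion genes were past 2-fold, against 1 when 5 was added, 10 past 1.5-fold and 0 past 4-fold. Over all genes kept, the numbers were 664, 243, 2469 and 49. Where mean FPKM had to reach 5, 3 of 19 adhesion genes and 449 of 8729 genes in all were past 2-fold. For Ti+Se-Met against Ti the number of adhesion genes past 2-fold was 0, and a pseudocount of 0.1 gave 1, which was Vtn. Over all genes kept, the numbers were 25 and 90. A lower threshold or pseudocount adds genes and a filter removes them by construction. The median log2 ratio of the adhesion genes (Ti against CTL) of -0.52 moved to -0.12 with no filter and to -0.75 as TPM, where all genes had -0.14. In Ti+Se-Met against CTL it was -0.36, and became -0.23 with a pseudocount of 5, -0.051 with no filter and -0.57 as TPM. For Ti+Se-Met against Ti the median of 0.25 moved to 0.11 with no filter. Leaving out the filter adds 16 genes near 0, whose differences are small by construction. TPM put 2 adhesion genes past 2-fold upwards and 8 downwards in Ti against CTL, in place of 1 and 6. Over all genes kept, TPM put 1097 past 2-fold in either direction, in place of 809. Of 390 values of single genes under other pseudocounts and scalings, 7 changed sign, in Lamb2 (Ti+Se-Met against Ti) and in Nid1 and Lamb1 (Ti+Se-Met against CTL). Shares within a class moved by at most 1.91 percentage points when genes below the filter were left out. Itga8, Itga2b, Itgb2 and Vtn rested on about 28, 20, 38 and 2 fragments in Ti+Se-Met, which limits their precision.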
